A study of Arabidopsis thaliana with 4 samples.

Results

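GI (GIGANTEA, AT1G22770) was examined as 1 of 27444 protein-coding genes on the 5 nuclear chromosomes of Arabidopsis thaliana, in peak lists of a chromatin immunoprecipitation (ChIP-seq) of the MYB-like factor RVE5. Its peaks were all those on chromosome 1 that overlapped the span of the gene with 3000 bp added on both sides. The rule gave 1 peak in each of 3 lists, 3 of 2367 peaks in all. GI was chosen by the fold and pileup of its region, which were known to be high in these lists, so pileup, fold and p below describe the peak and were not tested.

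The 3 lists came from 3 ChIP replicates of seedlings that overexpress RVE5 fused to a MYC tag, precipitated with an antibody to MYC. The other library was input DNA of the same genotype with no antibody, and it has no list used here. All seedlings were 14 days old, had grown at 22 °C in 16 h light and 8 h dark, and had been at 29 °C for 12 h when they were collected at zeitgeber time 12 h. RVE5 was overexpressed in every sample, and the promoter of the transgene and the number of plant lines are not given in the labels. There were no seedlings without the tag, none kept at 22 °C and no other time of day. What the antibody pulls down by itself and what RVE5-MYC adds cannot be told apart, and no change with warmth or time was measured. Since the labels do not tie the replicates to separate plants, the spread between them may be only technical.

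GI encodes a large plant protein with roles in the circadian clock and in flowering by day length. It is made late in the day, forms a blue-light complex with the F-box protein FKF1 that removes the CDF repressors of the flowering genes CO and FT, and steadies the F-box protein ZTL, which degrades TOC1 and PRR5. Morning clock factors of the family that includes CCA1, LHY and the REVEILLE proteins are known to bind a short DNA word, the evening element, which is found beside evening-expressed clock genes, GI among them. No sequence was used here, so whether that word lies under the peak was not examined.

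The peak lay between PAB3, which encodes a poly(A)-binding protein, and GI, on the side of GI that faces PAB3. In the list of replicate 1 it ran on chromosome 1 from 8060669 to 8061336, in replicate 2 from 8060693 to 8061293, and in replicate 3 from 8060693 to 8061299 (TAIR10). The stretch common to the 3 lists was 601 bp long, from 8060693 to 8061293, out of 668 bp covered by any of them. Replicates 2 and 3 thus had the same start, and the peak of replicate 1 was the longest and enclosed both others.

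Summits, the positions of the highest pileup, were at 8061068, 8060996 and 8060985 in replicates 1, 2 and 3. The summits of replicates 2 and 3 were 11 bp apart, and that of replicate 1 lay 72 and 83 bp from them, on the side of GI. The summit stood at 59.8%, 50.5% and 48.2% of the way along the peak in replicates 1, 2 and 3, counted from the end that faces PAB3, so each was near the middle of its peak. The near edge of the peak was within 500 bp of the span of GI in 3 of 3 lists. The summit was farther than 500 bp but within 1000 bp in 3 of 3. The peak edge was farther than 1000 bp but within 2000 bp from PAB3 in 3 of 3 lists, which means that PAB3 also lay within 3000 bp of the same peak. The strand of the genes was not in the table used, so which end of GI faces the peak is not stated.

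**Figure D1:**
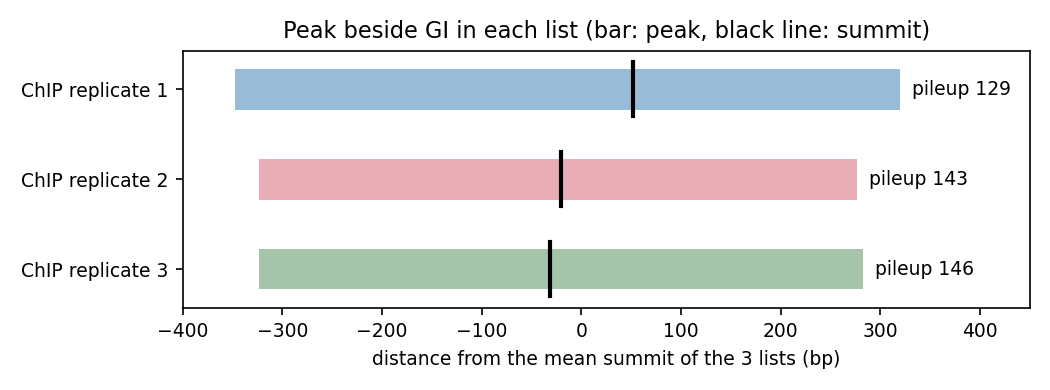
Extent of the peak beside GI in each ChIP list, as distance in bp from the mean of the 3 summits; bars span peak start to peak end, black lines are summits, and the pileup in reads is written beside each bar. The 3 bars share a core of 601 bp, and the summit of replicate 1 lies 72 and 83 bp from those of replicates 2 and 3.

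No peak of any list overlapped GI itself, and none lay within 3000 bp of its other end, where the ribosomal protein gene PFL follows. The next peak on the PAB3 side was 49.7, 85.6 and 57.3 kb away in replicates 1, 2 and 3. On the GI side the next peak was 119.9 kb away in replicate 1 and 119.9 kb in replicate 3, near the auxin transporter gene PIN7, and 14.4 kb in replicate 2, near AT1G22830. That peak of replicate 2 had a pileup of 40 reads and a fold of 1.997, and the other lists had no peak there. Out to the peaks near PIN7 on one side and to 49.7 kb on the other, the peak beside GI was the only one found in more than 1 list.

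The pileup at the summit was 129 reads in replicate 1, 143 in replicate 2 and 146 in replicate 3, a mean of 139 ± 9.07 (SD, n = 3). Counting every unit of pileup as an independent read, the exact 95% Poisson intervals were 108 to 153, 121 to 168 and 123 to 172 reads, which cover counting error only. The 3 intervals overlapped, and the SD over the lists was below the 11.8 reads that counting alone gives at this mean. An SD of 3 values is too imprecise to read this as close agreement, and library totals are unknown. Replicate 1 was the lowest of the 3.

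The pileup was 3.39, 3.67 and 3.65 times the median of its own list in replicates 1, 2 and 3. The authors' lists also give a fold for each peak, read here as a ratio over a local background. At GI it was 7.84, 8.31 and 8.21, a mean of 8.12 ± 0.250 (SD, n = 3). This fold stood at 3.20 ± 0.144 times the list median (SD, n = 3). The deposited −log10 p was 71.5, 82.1 and 83.0 in replicates 1, 2 and 3.

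The local background itself could be recovered, because the deposited p-value of every peak equalled the upper Poisson tail of its pileup over a background of (pileup + 1)/fold − 1. At GI this background was 15.6, 16.3 and 16.9 reads in replicates 1, 2 and 3, against list medians of 14.0, 15.0 and 15.4 reads. Of the peaks in each list, 73.7%, 71.5% and 73.5% had a lower background than the GI peak in replicates 1, 2 and 3. The background at GI was thus slightly above the typical one, and the pileup stood 113, 127 and 129 reads above it. Since 1 read is added to pileup and background alike, the deposited fold slightly understates the plain ratio.

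By fold, the GI peak was in first place in all 3 lists, of 676, 827 and 864 peaks. By pileup it held rank 7, 6 and 7, and by p-value rank 5, 6 and 6 in replicates 1, 2 and 3. Peaks with a higher pileup numbered 6, 5 and 6. Of these 17 peaks, 14 had a background above 100 reads, from 221 to 2086, and folds from 1.53 to 3.10. The remaining 3 were 1 region on chromosome 4, in each of the lists. The order at the top thus depended on whether the height of the pileup or its ratio to the background was ranked. Just below GI in pileup came the region nearest to PRR5 with 111 reads in replicate 1, and the region nearest to GRP7 with 109 in replicate 2 and 125 in replicate 3.

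**Figure D2:**
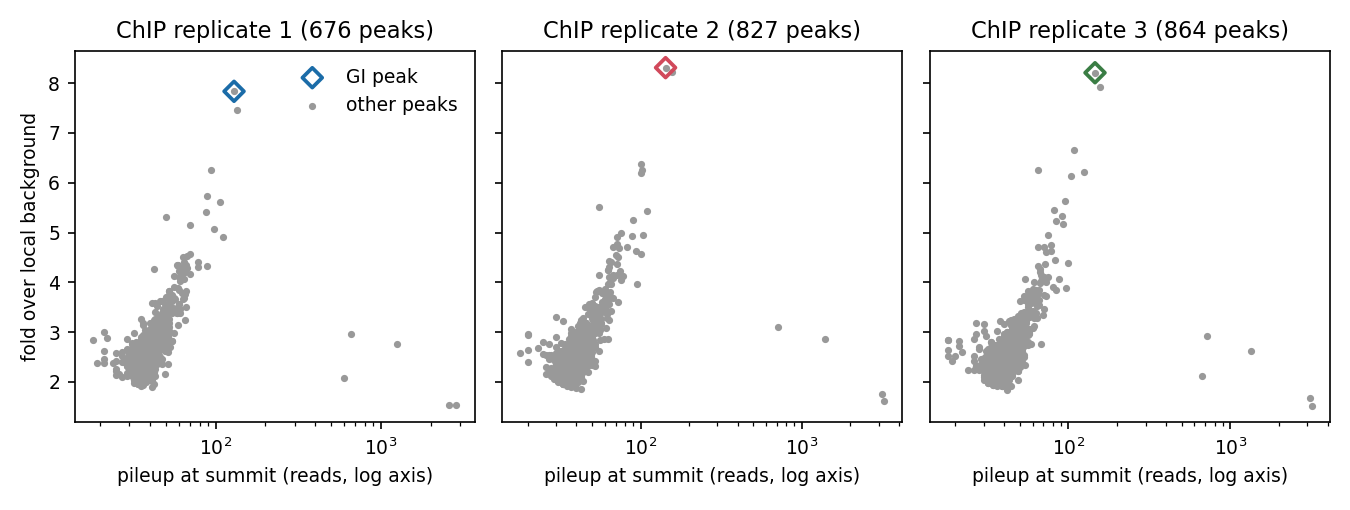
Fold over local background against pileup at the summit (reads, log axis) for every peak of each ChIP list; open diamonds mark the peak beside GI and grey points the other peaks. The GI peak has the highest fold in each panel, 7.84, 8.31 and 8.21, while 6, 5 and 6 peaks lie to the right of it, most of them at folds under 3.2.

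The region on chromosome 4, from 3056496 to 3057012 with AT4G06479 as its nearest gene, was the most like GI in both measures. The GI peak had 129, 143 and 146 reads in replicates 1, 2 and 3, against 134, 157 and 157 reads in the chromosome 4 region, so GI was lower in 3 of 3 lists. The folds at GI were 7.84, 8.31 and 8.21, against 7.47, 8.23 and 7.92 in the chromosome 4 region, so GI was higher in 3 of 3. The ranges of both measures overlapped over the lists, and so did the Poisson intervals of the pileup within each list. GI and this region were the only peaks of a fold of at least 7 in any list, 2 in each. Background was 16.3 ± 0.660 reads at GI and 18.1 ± 0.940 in the chromosome 4 region (SD, n = 3 each). The peak was wider at GI, 625 ± 37.1 bp, against a mean of 498 bp in the chromosome 4 region, and its summits were spread over 83 bp, against 5 bp.

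The next region by fold had the B-box zinc finger gene BBX8 as its nearest gene. The GI peak had 129 to 146 reads over the lists, against 93 to 109 reads at BBX8, and folds of 7.84 to 8.31 at GI, against 6.26 to 6.65 at BBX8. Neither range overlapped, although the Poisson intervals of the pileup overlapped within each list. By mean rank of fold, the region nearest to RHL41, the stress-response zinc finger gene also called ZAT12, followed. It had 88, 101 and 95 reads and folds of 5.73, 6.19 and 5.64 in replicates 1, 2 and 3. By fold it ranked 4, 5 and 7 in these lists, so other regions came between BBX8 and RHL41 in replicates 2 and 3. The 3 regions with the highest pileup were of another kind than GI. They lay at the start of chromosome 2, nearest to AT2G01023 and AT2G01008, and on chromosome 3 from 14201436 to 14201778, nearest to AT3G41762. Their mean pileup was 3096, 1327 and 2945 reads, with mean folds of 1.55, 2.75 and 1.66, in that order.

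Position was compared with the 199 regions that had a peak in every list, of which the GI region was 1. The start of the GI peak varied over 24 bp between lists, against a median of 90 bp over the 199 regions, and 17 regions varied less. Its end varied over 43 bp, against a median of 92 bp, and 45 regions varied less. Its summit varied over 83 bp, close to the median of 75 bp, and 105 regions varied less. The edges at GI thus recurred more closely than in most shared regions, and the summit did not. Close edges were not particular to GI. Starts and ends varied over 28 and 13 bp in the chromosome 4 region, 19 and 21 bp at BBX8, and 51 and 0 bp at RHL41. In the 3 regions with the highest pileup, starts varied over 4 to 11 bp and ends over 2 to 12 bp. Whether close edges go with the strength GI was chosen by was not tested. The GI peak was also wide: 601 to 668 bp, against list medians of 282 to 302 bp, which made it 2.14 ± 0.0704 times the median width (SD, n = 3). By width it ranked 17, 35 and 39 in replicates 1, 2 and 3. Over the shared regions the median of the mean width was 376 bp. Of these regions 16 were wider than that of GI, those nearest to FKF1 and GRP7 among them. The SD of the fold over the lists was 0.250 at GI, against a median of 0.302 over the shared regions, and 76 of them had a smaller SD. As a share of the mean, the fold at GI varied by 3.08%, against a median of 9.36%, and 9 regions varied less, but the mean it is divided by is the highest of all, which is what GI was chosen by. The SD of the pileup was 9.07 reads at GI, against a median of 5.51, and 170 regions had a smaller SD. As a share of the mean, the pileup at GI varied by 6.51%, against a median of 10.1%, and 49 regions varied less. That mean, 139 reads against a median of 48, is likewise a value GI was chosen by.

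**Figure D3:**
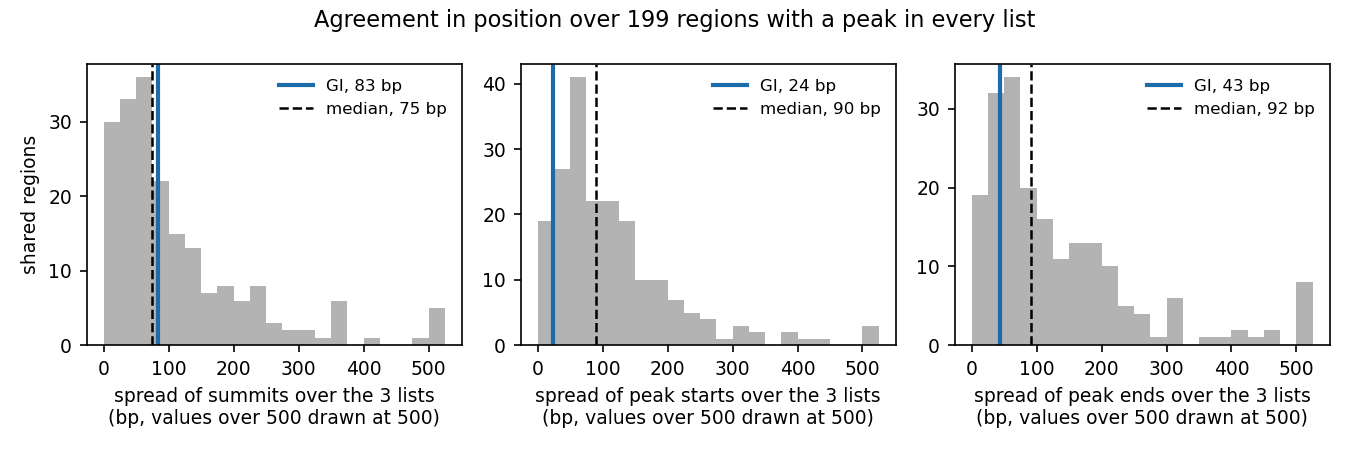
Distance between the outermost summits, starts and ends of the 3 lists, in bp, over 199 regions with a peak in every list; the solid line is the GI region and the dashed line the median. GI lies near the median for summits (83 against 75 bp) and below it for starts (24 against 90 bp) and ends (43 against 92 bp).

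Other genes of the clock and of day-length flowering were counted with the same 3000 bp on both sides. In a list of 26 such genes without GI, 9 had a peak in all 3 ChIP lists, 1 in 2, 3 in 1 and 13 in none. Over all protein-coding genes the share with a peak in all 3 was 1.81%, or 496 of 27444. A peak in at least 2 lists was found for 10 of the 26, against 4.65% of all protein-coding genes, and in at least 1 for 13, against 12.8%. The list was drawn up with earlier results of these data known, so the count is a description. Each gene is given below by its strongest peak by fold in each ChIP list, which need not be the same peak in all of them.

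Among the daytime and evening repressors of the clock, PRR7 came closest to GI by fold, and the mean fold at GI was 1.44 times that of PRR7. By pileup PRR5 was closer: the mean pileup at GI was 1.38 times that of PRR5 and 1.51 times that of PRR7. PRR7 had 70, 102 and 104 reads in replicates 1, 2 and 3. Replicate 1 was also the lowest at GI and in the list medians of pileup, which were 38, 39 and 40 reads. For PRR5, a target of ZTL, the mean fold at GI was 1.91 times as high, and the pileup of PRR5 was highest in replicate 1, at 111 reads against 95 and 96 in replicates 2 and 3. For TOC1, the other target of ZTL, the mean fold at GI was 1.95 times as high, with 66, 75 and 83 reads at TOC1. The replicate with the highest pileup thus differed between PRR5 and the others. PRR3 and PRR9, of the same family of repressors, had no peak within 3000 bp in any list.

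ELF3, ELF4 and LUX, parts of the evening complex, a night-time repressor, each had a peak in 3 lists. The mean fold at GI was 2.40 times that of ELF3, 2.46 times that of ELF4 and 2.47 times that of LUX. In replicate 3, AT3G46630 was nearer to the summit than LUX. CHE, a TCP factor that represses CCA1, had one as well, with AT5G08320 nearer to the summit than CHE itself in 3 of 3 lists, and the fold at GI was 2.37 times as high. Among the genes that GI acts on in flowering, CDF1 had 43, 52 and 56 reads and CDF3 had 54, 58 and 56 reads in replicates 1, 2 and 3, and the mean fold at GI was 2.25 and 2.21 times as high. CO and FT, which act after GI in the same pathway, had no peak in any list within 3000 bp, nor had TSF, CDF2 and CDF5. NOX, a further evening complex gene of the list, had a peak in replicates 2 and 3 only, with 26 and 49 reads. The summits of these peaks lay 1730 bp apart, and that of replicate 2 ranked 817 of 827 by pileup. CCA1 and LHY had a peak in replicate 3 only, and LNK1 in replicate 1 only.

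**Figure D4:**
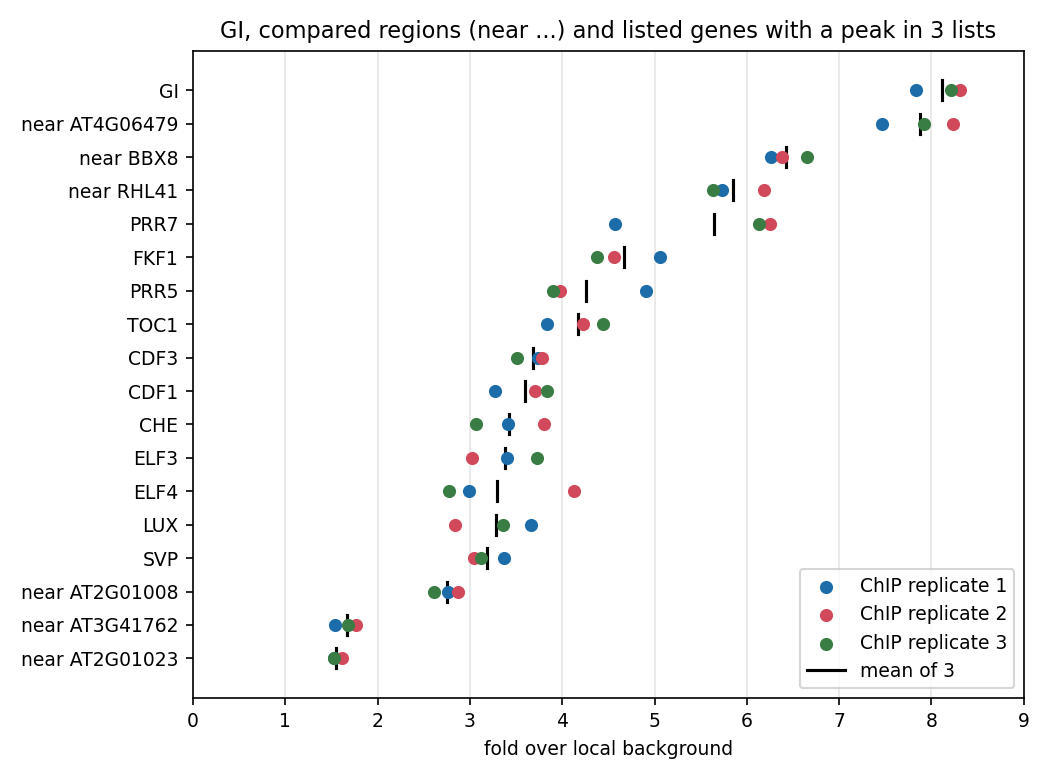
Fold over local background in each ChIP list for GI, for the compared regions named by their nearest gene, and for the genes of both gene lists with a peak within 3000 bp in all 3 lists; points are replicates and black lines their means. GI lies between 7.84 and 8.31, overlaps only the region near AT4G06479, and is above every clock and flowering gene drawn.

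A further list held 14 genes whose proteins are known to bind GI, ELF3 and ELF4 among them. Of these, 4 had a peak in all 3 ChIP lists, again against 1.81% of all protein-coding genes, 1 had it in 2, 3 in 1 and 6 in none. FKF1, the partner of GI in blue light, had 98, 101 and 100 reads and folds of 5.06, 4.56 and 4.38 in replicates 1, 2 and 3, and the mean fold at GI was 1.74 times as high. ZTL and LKP2, the related F-box genes, had no peak in any list. SVP, a repressor of flowering, had 58, 54 and 61 reads in replicates 1, 2 and 3, and the mean fold at GI was 2.55 times as high. PIF4, a growth regulator in warmth, had a peak in replicates 2 and 3, with 47 and 53 reads. At a typical background of about 15 reads, a gene without a peak may still carry signal below the unstated threshold of the lists, so its absence from a list does not show absence of RVE5-MYC.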

How the data were processed

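The authors deposited 1 peak list for each of 3 ChIP replicates. By its column names, each list gives start, end, length and summit, a pileup, a fold enrichment, and −log10 of a p-value and of a q-value. The pileup was read here as the signal at the summit, and the fold as a ratio over a local background. Per the submitters' processing notes, the software named is CASAVA 1.4 and the genome build TAIR10. Aligner, peak caller, threshold and use of the input were not given in the sources used here. Library totals are unknown.

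The deposited −log10 p differed from the upper Poisson tail of the pileup over (pileup + 1)/fold − 1 by at most 0.00124 in any of the 3 lists. Ranks were taken within each list, 1 being the highest. Regions are peaks of the 3 lists joined at an overlap of at least 1 bp; where a list had several peaks in a region, the highest pileup was used. Gene names, neighbours and spans came from a RefSeq table of another assembly release, so gene coordinates and exact distances to genes are not printed, only limits of 500 to 3000 bp. The planned distance to the gene start and the motif counts were not run, for want of strand and sequence.

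The gene, the gene lists and the tests were chosen with earlier results of these data known. Genes named are GI and its neighbours, the nearest genes of the 3 other shared regions best by mean rank of pileup and of the 3 best by fold, and listed genes with a peak in all 3 lists. GRP7, PIN7, AT1G22830, AT5G08320, AT3G46630, PIF4 and the listed genes with fewer peaks were named after their values were seen. Merging, ranking and counting were tested on simulated data (Python 3.11.15, pandas 2.3.3, numpy 2.4.6, scipy 1.17.1, matplotlib 3.10.9). Alternatives left out each replicate, changed the flank, the overlap, the ranking measure and the scale, or kept the better 50% of each list.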

Additional observations from a re-analysis of the deposited data

How the results depend on the processing

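Of 42 alternatives, 35 left the value within its limit, which was 1 SD over the lists for a level and 1.5 times for a count. Leaving out 1 of 3 lists cannot move a mean by 1 SD. For mean levels those alternatives were therefore bound to stay within the limit and show no robustness. The number of GI peaks stayed at 3 with flanks of 1000 and 5000 bp and in the better 50% of each list, and was 0 with no flank. The mean rank of the GI peak was 6.67 by pileup, 1 by fold, 5.67 by p-value and 5.67 by q-value, and 6 by pileup among peaks of shared regions only. Its pileup over the list median was 3.57, and 2.82 over the median of the shared regions. The spread of its summits was 83 bp and ranged from 11 bp, without replicate 1, to 83 bp when 1 replicate was left out. Mean fold ranged from 8.02 to 8.26 and mean pileup from 136 to 144.5 reads. The count of clock and day-length genes was 7 to 10 in its alternatives, against 9, and that of GI partners 4 to 5, against 4. The lowest of these, 7, came from counting a peak for its nearest gene only, which was chosen after the data were seen. No cause of any of these values was tested. No paired analysis was possible because the ChIP replicates form a single group. Counting error at a pileup of 129 to 146 reads limits the comparison of GI with regions of similar height, and unknown library totals limit that between lists.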
